A study of Mus musculus with 6 samples.

Results

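Chylomicrons are the triglyceride-rich lipoproteins that carry dietary fat out of the small intestine, and the 10 genes described here encode the enzymes, apolipoproteins and transport proteins that make them. The genes were Mogat2, Dgat1 and Dgat2 for triglyceride resynthesis, Apob, Apoa1, Apoa4, Apoc2 and Apoc3 for the protein coat, Mttp for lipid loading and Sar1b for export. They were matched by symbol in the probe annotation, using probe sets assigned to exactly 1 gene. Of the 10 genes, 9 had such a probe set, each of them a single one, out of 19938 genes in all. Apoc2 shares its probe set with another symbol, so no value is given for it.

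After a meal, fatty acids and monoacylglycerol enter the absorptive enterocyte and are rejoined to triglyceride at the endoplasmic reticulum. The microsomal triglyceride transfer protein then loads this lipid onto apolipoprotein B, smaller exchangeable apolipoproteins join the particle, and it leaves the endoplasmic reticulum in vesicles of the COPII coat on its way to the lymph. The pathway is most active in the proximal small intestine and also operates in the ileum. In people, loss of MTTP causes abetalipoproteinaemia and loss of SAR1B causes chylomicron retention disease, both with fat malabsorption.

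RNA from the whole wall of the ileum, the distal small intestine, was hybridised to Affymetrix mouse Gene 1.0 ST arrays, 1 array for each of 6 chow-fed mice. The mice labelled Gata6 KO (n = 3) carried the Villin-CreERT2 transgene and 2 floxed alleles of Gata6 (flox/flox), which encodes a DNA-binding protein of the GATA family. Control mice (n = 3) carried Villin-CreERT2 without the floxed alleles. The Villin promoter drives this tamoxifen-dependent Cre recombinase in intestinal epithelium, so Gata6 in muscle and the other wall layers was not targeted. All 6 mice, controls included, received tamoxifen for 5 days when 6 to 8 weeks old, and ileum was collected 28 days after that, at an age of 10 to 12 weeks. The tamoxifen was at 100 mg/ml. The study's text speaks both of 1 injection and of 5 days, and gives no volume.

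The signal of Gata6 did not bear out its deletion: it read 6.93, 6.81 and 6.86 in the arrays labelled Gata6 KO and 6.31, 6.33 and 6.50 in the controls, in log2 units. By the rule given below Gata6 was called higher (log2 fold change 0.49, SE 0.08, limma adjusted p = 0.0162). Leaving out 1 array gave limma adjusted p of 0.0288 to 0.0623 for Gata6. The position of its probes against the deleted exons is not stated, and probes elsewhere in the gene would not test the deletion. Each direction below therefore belongs to the arrays with the Gata6 KO label. Control replicate 3 had male signal (Xist at 2.31, with 7.39 to 7.81 elsewhere). Car1, a colon gene, read 12.20, 12.18 and 12.14 in the arrays labelled Gata6 KO and 10.96, 5.68 and 6.87 in controls, so control replicate 1 stood apart. Counts of the chylomicron genes are also given without these 2 controls, and 6 arrays limit the precision.

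The chylomicron genes had lower signal in the arrays labelled Gata6 KO than in controls. Of the 9 genes measured, 7 fell, none rose and 2, Dgat2 and Sar1b, did not pass. A gene passed at a limma adjusted p under 0.05 over all genes, and 3.25% of all genes were lower by that rule and 4.99% higher. All 7 were at least 2-fold lower, as were 0.983% of all genes, and 5 were at least 4-fold lower, as were 0.276% of all genes. The median log2 fold change of the 9 genes was -2.09, beside -0.00433 over all genes. In all 9, Dgat2 and Sar1b included, the 2 groups of arrays did not overlap, beside 12.6% of all genes that were lower without overlap and 29.3% without overlap in either direction. Without Gata6 KO replicate 2 the count of lower genes was 4, and without control replicates 1 and 3 together, which leaves 1 control, it was 1. Ileum was measured whole, so fewer absorptive cells and less RNA per cell cannot be told apart.

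**Figure D1:**
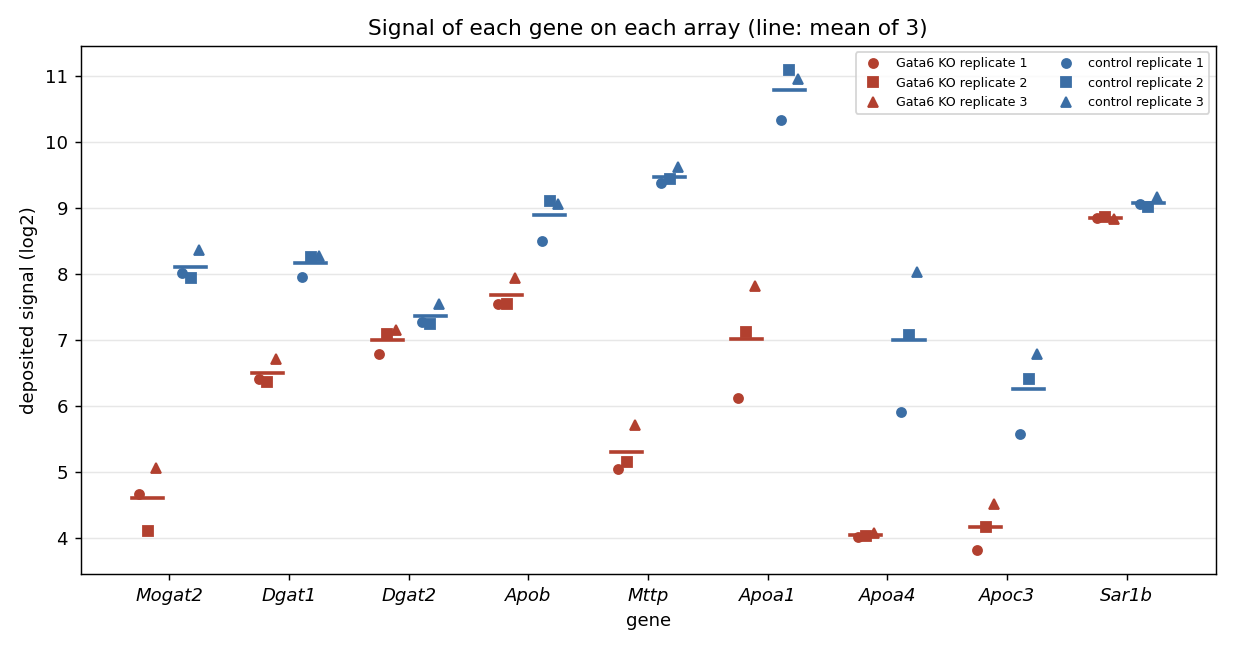
Deposited log2 signal (vertical axis) of the 9 genes (horizontal axis) on each array, with Gata6 KO on the left of each pair in red and control on the right in blue, marker shape for the replicate number and a line for the mean of 3. Mttp lies between 5.04 and 5.70 in the arrays labelled Gata6 KO and between 9.37 and 9.62 in controls, whereas the groups of Sar1b and Dgat2 lie close together.

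Promoter windows are shown for 4 genes that fell, since they changed together and GATA6 belongs to a family that binds GATA sequences. RefSeq (GRCm38.p6) gave a window for 6 of the 10 genes, each of 300 bases, with 250 before the start of transcription and 50 after it. The 3 kinds of motif were searched on both strands: GATA motifs (AGATAA or AGATAG, and TGATAA or TGATAG), the HNF4 core (CAAAGTCCA or CAAAGTTCA) and a TATA box (TATAAA). Capitals mark the matches. The windows lie at chr9:46228380-46228679 (plus strand), chr9:46240594-46240893 (plus strand), chr12:7977427-7977726 (plus strand) and chr3:138143369-138143668 (minus strand).
Apoa1: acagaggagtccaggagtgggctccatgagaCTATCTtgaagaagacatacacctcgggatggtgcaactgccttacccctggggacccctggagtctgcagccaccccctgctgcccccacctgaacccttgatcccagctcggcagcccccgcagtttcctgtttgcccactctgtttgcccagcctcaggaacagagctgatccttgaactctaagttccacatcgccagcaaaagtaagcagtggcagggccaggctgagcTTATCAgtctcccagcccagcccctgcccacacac
Apoa4: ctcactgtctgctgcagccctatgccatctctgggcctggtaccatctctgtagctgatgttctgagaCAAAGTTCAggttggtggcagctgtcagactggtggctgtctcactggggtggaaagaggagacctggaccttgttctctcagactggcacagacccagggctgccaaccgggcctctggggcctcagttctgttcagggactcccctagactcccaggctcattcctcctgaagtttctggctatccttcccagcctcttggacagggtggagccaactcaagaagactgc
Apob: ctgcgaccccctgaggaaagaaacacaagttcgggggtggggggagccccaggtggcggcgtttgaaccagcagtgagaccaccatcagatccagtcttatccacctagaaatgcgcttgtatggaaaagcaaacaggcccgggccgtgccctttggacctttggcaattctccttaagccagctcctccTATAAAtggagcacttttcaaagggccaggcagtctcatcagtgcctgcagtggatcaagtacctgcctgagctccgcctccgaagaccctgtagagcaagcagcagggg
Mttp: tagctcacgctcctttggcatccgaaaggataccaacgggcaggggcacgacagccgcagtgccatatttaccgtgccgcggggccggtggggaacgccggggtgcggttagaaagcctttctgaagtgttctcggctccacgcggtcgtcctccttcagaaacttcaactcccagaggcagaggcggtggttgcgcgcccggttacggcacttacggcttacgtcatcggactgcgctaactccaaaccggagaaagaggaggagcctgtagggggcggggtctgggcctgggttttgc
Apoa1 held GATA motifs at 2 places, 1 beginning 219 bases before the start and 1 at base 16 after it. Apoa4 held a single HNF4 core, beginning 182 bases before the start, and Apob a TATA box beginning 60 bases before it. The Mttp window held none of the 3. The windows of Apoc2, which has no value here, and Sar1b, which did not pass, are not printed. Apoc2 held a GATA motif beginning 19 bases before the start, and Sar1b held none of the 3. Among all 32851 windows of this length, 29.8% held a GATA motif, 0.861% an HNF4 core and 13.6% a TATA box. The search describes letters in these windows and says nothing about binding.

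Triglyceride resynthesis begins with Mogat2, the monoacylglycerol acyltransferase that adds a fatty acid to absorbed monoacylglycerol. Mogat2 read 4.66, 4.09 and 5.06 in the arrays labelled Gata6 KO and 8.01, 7.93 and 8.36 in controls. The lowest control thus lay 2.88 above the highest array labelled Gata6 KO, a gap wider than the range of 0.966 among the arrays labelled Gata6 KO. Its mean was 4.603 ± 0.485 against 8.10 ± 0.22 in controls (SD, n = 3 each), an 11.3-fold lower signal (log2 fold change -3.50, SE 0.24, limma adjusted p = 6.79e-04). No background level is given, and array medians were 3.33 to 3.38 in the arrays labelled Gata6 KO, so the size of this decrease is uncertain.

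The last step, from diacylglycerol to triglyceride, is carried out by Dgat1 and Dgat2, acyltransferases of unrelated protein families. Dgat1, the one known for resynthesis of dietary triglyceride in mouse enterocytes, read 6.41, 6.36 and 6.70 in the arrays labelled Gata6 KO and 7.96, 8.25 and 8.28 in controls. It fell 3.18-fold (log2 fold change -1.67, SE 0.13, limma adjusted p = 9.19e-04). Dgat2, which is also a main enzyme of liver and fat, read 6.78, 7.09 and 7.14 in the arrays labelled Gata6 KO and 7.27, 7.24 and 7.54 in controls. Its highest value in the first group was 0.097 below the lowest control, and it did not pass (log2 fold change -0.35, 95% interval -0.65 to -0.05, limma adjusted p = 0.154).

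The unequal change of these enzymes was examined as the difference of 2 signals on the same array. Dgat1 minus Dgat2 was -0.72 to -0.37 in the arrays labelled Gata6 KO and 0.69 to 1.00 in controls, a difference of -1.32 between the group means. Mogat2 minus Dgat2 was -2.99 to -2.09 in the arrays labelled Gata6 KO and 0.69 to 0.81 in controls, a difference of -3.15, with its size uncertain as for Mogat2. Neither comparison overlapped, and each had an exact two-sided permutation p of 0.1, the smallest that 3 arrays against 3 can give. Across the 5 pairs of genes compared in this way, the adjusted p was 0.1 for each.

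Apob encodes the large scaffold protein of which each chylomicron holds a single copy. Its signal was 7.54, 7.54 and 7.93 in the arrays labelled Gata6 KO and 8.49, 9.11 and 9.06 in controls. This was the smallest of the 7 decreases, 2.33-fold (log2 fold change -1.22, SE 0.19, limma adjusted p = 0.0110). The call was lost without control replicate 3 (adjusted p = 0.0554), Gata6 KO replicate 1 (0.0542) or Gata6 KO replicate 2 (0.0600), with log2 fold changes of -1.13 to -1.15.

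Mttp, the large subunit of the transfer protein that loads triglyceride onto apolipoprotein B, had the largest decrease of the 9 genes. It read 5.04, 5.14 and 5.70 in the arrays labelled Gata6 KO and 9.37, 9.43 and 9.62 in controls. The gap between the groups was 3.67, against a range of 0.663 within the arrays labelled Gata6 KO and 0.252 within controls. Mttp was 18.1-fold lower (log2 fold change -4.18, SE 0.18, limma adjusted p = 1.57e-04), and 3 of the 19938 genes had a more negative fold change. Mttp minus Apob on the same array was -2.50 to -2.23 in the arrays labelled Gata6 KO and 0.32 to 0.87 in controls, with no overlap (difference -2.96, exact permutation p = 0.1, the smallest possible).

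Among the exchangeable apolipoproteins, Apoa1, which forms most of the protein of high density lipoprotein and is made in liver and intestine, read 6.12, 7.12 and 7.81 in the arrays labelled Gata6 KO and 10.33, 11.09 and 10.96 in controls. The first group spread over 1.69 on the log2 scale, and its highest array still lay 2.52 below the lowest control. Apoa1 fell 13.7-fold (log2 fold change -3.78, SE 0.41, limma adjusted p = 0.00282).

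Apoa4, a lipid-responsive apolipoprotein made largely by enterocytes in rodents, read 4.004, 4.029 and 4.074 in the arrays labelled Gata6 KO and 5.90, 7.07 and 8.02 in controls. The 3 arrays labelled Gata6 KO agreed within 0.070, while the controls spread over 2.12. The decrease was 7.79-fold (log2 fold change -2.96, SE 0.46, limma adjusted p = 0.0114). The call was lost without Gata6 KO replicate 1 (0.0554) or 2 (0.0592). The file gives no background level, and array medians were 3.33 to 3.38 in the arrays labelled Gata6 KO, so the size of this decrease and of that of Apoc3 is uncertain.

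Apoc3, which slows the clearance of triglyceride-rich particles by inhibiting lipoprotein lipase, read 3.81, 4.16 and 4.51 in the arrays labelled Gata6 KO and 5.57, 6.40 and 6.78 in controls. It was 4.25-fold lower (log2 fold change -2.09, SE 0.31, limma adjusted p = 0.00995), a call lost without Gata6 KO replicate 2 (0.0539). Apoa1 minus Apoc3 was 2.31 to 3.29 in the arrays labelled Gata6 KO and 4.18 to 4.76 in controls (difference -1.69, exact permutation p = 0.1, the smallest possible). Since Apoc3 was dim in the arrays labelled Gata6 KO, the size of this difference is uncertain too.

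Sar1b, the small GTPase that starts COPII coat assembly and is needed in people for chylomicron export, read 8.84, 8.85 and 8.82 in the arrays labelled Gata6 KO and 9.06, 9.01 and 9.16 in controls. The difference was small and did not pass (log2 fold change -0.24, 95% interval -0.41 to -0.06, limma adjusted p = 0.103). Its close relative Sar1a also did not pass, at 0.20 on the same scale (SE 0.08, limma adjusted p = 0.193). Sar1b minus Sar1a was 0.89 to 1.03 in the arrays labelled Gata6 KO and 1.291 to 1.502 in controls (difference -0.43, exact permutation p = 0.1, the smallest possible). Both are similar in sequence, and cross-hybridisation between their probe sets was not tested.

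**Figure D2:**
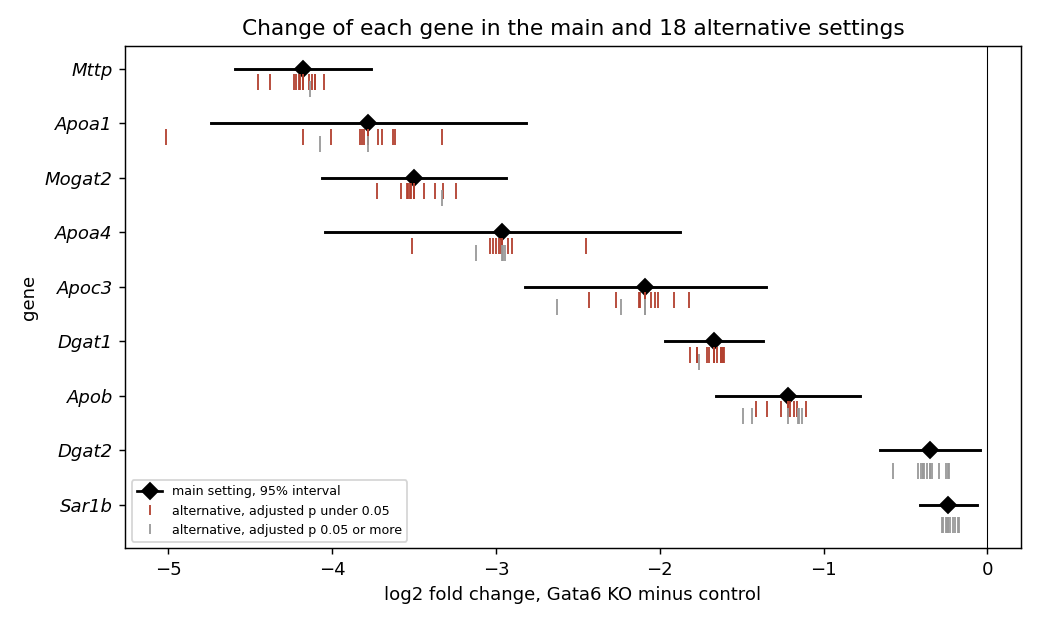
Log2 fold change, Gata6 KO minus control (horizontal axis), of the 9 genes in order of size (vertical axis), with the 95% interval of the main setting in black and a tick for each of 18 alternative settings, red where the limma adjusted p was under 0.05 and grey where it was not. All ticks lie below 0, those of Mttp between -4.45 and -4.05, and those of Dgat2 and Sar1b are all grey.

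Some arrays were high or low for most of the genes. Gata6 KO replicate 3 was the highest array of its group for 8 of the 9 genes, Sar1b being the exception, and control replicate 3 the highest control for 7, with control replicate 2 highest for Apoa1 and Apob. Control replicate 1, the control with colon gene signal, was the lowest control for 6 genes. In the arrays labelled Gata6 KO, Fabp6, the ileal bile acid binding protein, read 7.07, 7.73 and 8.55, lowest in replicate 1 and highest in replicate 3, as was Apoa1. Without control replicate 1 the same count of 7 genes was lower, with Apoa4 at -3.51 and Apoa1 at -4.01. Without control replicate 3, the male-signal array, 6 were lower.

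Several of these genes lie next to each other in the genome, and none of the measured neighbours passed. By RefSeq gene order (GRCm38.p6), Apoa1, Apoc3 and Apoa4 follow one another on chromosome 9, and Dgat2 and Mogat2 are adjacent on chromosome 7. The 2 nearest protein-coding genes on either side of the 10 genes gave 28 neighbours that are not among the 10, of which 24 were measured. The count of 0 stands beside 8.24% of all genes called by limma in either direction, and 6 of the 24 had an unadjusted p under 0.05, beside 24.7% of all genes. Their log2 fold changes ran from -0.50 to 0.26, with a smallest limma adjusted p of 0.101. Neighbours differed in brightness, from a control mean of 8.47 for Clptm1 to 3.61 for Apoa5 and 2.82 for Apoc1. Control array medians were 3.41 to 3.44, so a fall of the dim neighbours could hardly be seen. Their lack of a call therefore does not show that they were unchanged. Without control replicate 1 a single neighbour was called, and none was in any other setting. It was Dapp1, 2 genes away from Mttp (log2 fold change -0.65, limma adjusted p = 0.0360).

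On chromosome 9 the values ran from 0.23 for Pafah1b2 and -0.00433 for Sik3, through the 3 apolipoprotein genes, to -0.31 for Apoa5, a further apolipoprotein gene expressed mainly in liver, and 0.05 for Zpr1. Beside Mogat2 at -3.50, the adjacent genes Dgat2 and Map6 read -0.35 and -0.01. Around Apoc2, the apolipoprotein genes Apoc4 and Apoc1 had log2 fold changes of -0.07 and 0.21 (limma adjusted p = 0.576 and 0.455).

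**Figure D3:**
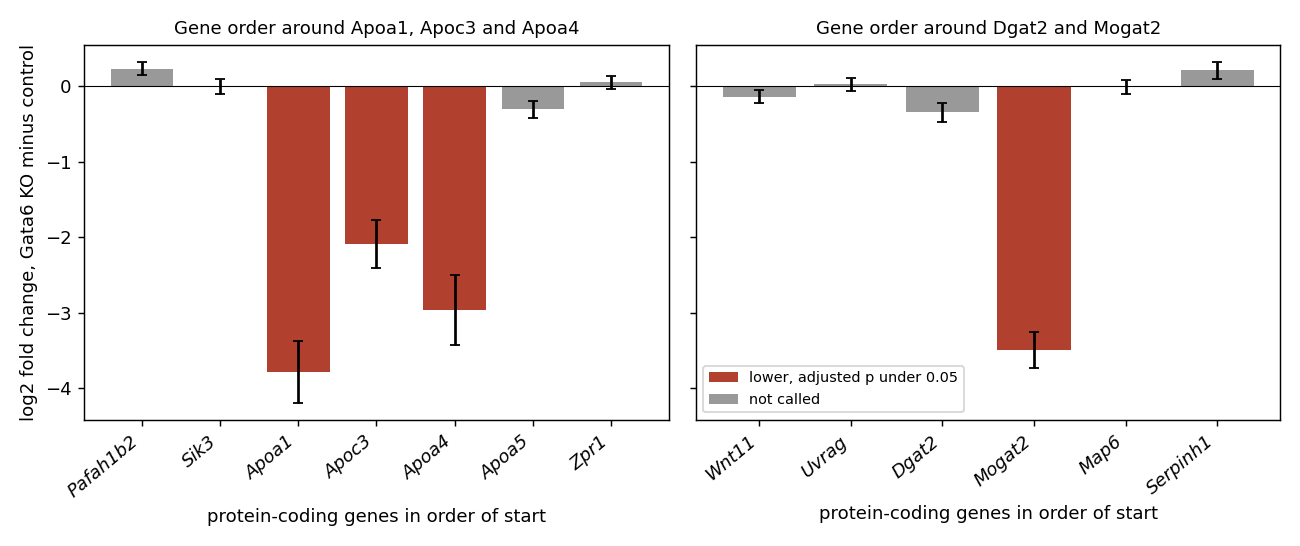
Log2 fold change, Gata6 KO minus control (vertical axis, bars with SE), of protein-coding genes in order of their start (horizontal axis) around Apoa1, Apoc3 and Apoa4 on the left and around Dgat2 and Mogat2 on the right. Red bars passed and grey bars did not: the apolipoprotein genes stand at -3.78, -2.09 and -2.96 between neighbours near 0, and Mogat2 at -3.50 beside Dgat2 at -0.35. Some neighbours, such as Apoa5 and Map6 (control means 3.61 and 3.79), were dim and had little room to fall.

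Among proteins that assist lipoprotein assembly, 5 of 11 measured genes fell in the arrays labelled Gata6 KO, beside 3.25% of all genes. The other 6 did not pass, and the median was -0.34 on the log2 scale. All 11 had a negative log2 fold change, and 8 were lower without overlap, beside 12.6% of all genes. Tm6sf2, a membrane protein of the endoplasmic reticulum needed for lipid loading of lipoproteins, read 6.61, 6.45 and 6.78 in the arrays labelled Gata6 KO and 8.95, 8.85 and 9.19 in controls (log2 fold change -2.38, SE 0.12, limma adjusted p = 2.76e-04). Pla2g12b, a catalytically inactive phospholipase relative that helps particles take up lipid, fell by 1.48 (SE 0.16), with 5.11, 4.65 and 5.21 in the arrays labelled Gata6 KO and 6.37, 6.40 and 6.63 in controls. A1cf, a cofactor of Apob mRNA editing, fell by 1.11 (SE 0.15), Lpcat3, which puts polyunsaturated chains into membrane phospholipid, by 0.74 (SE 0.07), and the lipid droplet protein Cideb by 0.67 (SE 0.11). The limma adjusted p of these 4 was 0.00167 to 0.0134, and Cideb lost the call without Gata6 KO replicate 1 (0.0571) or 2 (0.0663).

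The other 6 assembly helpers were not called, though P4hb, Surf4 and Canx were lower without overlap. P4hb, the protein disulfide isomerase that pairs with Mttp in the transfer protein, was at -0.34 (SE 0.10, limma adjusted p = 0.0747). Apobec1, the enzyme that edits Apob mRNA to its short intestinal form, had -0.17 (SE 0.16, adjusted p = 0.555). The chaperones Hspa5, Hsp90b1 and Canx had -0.12, -0.17 and -0.23, with adjusted p of 0.119 to 0.519; these 5 genes were named after their values were seen.

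Other glycerolipid enzymes moved in both directions. The list holds mainly enzymes that act before Dgat1, with Mogat1 and the DGAT2 relatives Dgat2l6, Awat1 and Awat2 beside them. Among 17 measured, 3 were called lower and 3 higher, beside 3.25% and 4.99% of all genes, and 11 neither. The median was -0.08 on the log2 scale, and 5 lay below the median of every array. Gpat3, a glycerol-3-phosphate acyltransferase, read 5.50, 5.39 and 5.58 in the arrays labelled Gata6 KO and 6.70, 6.99 and 7.01 in controls (log2 fold change -1.41, SE 0.11, limma adjusted p = 9.04e-04). Agpat2, which adds the next fatty acid, fell by 0.91 (SE 0.12, limma adjusted p = 0.00596), and Lpin3, a phosphatidate phosphatase, by 0.51 (SE 0.10, limma adjusted p = 0.0255).

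In the same enzyme family as Agpat2, Agpat3 rose by 0.80 (SE 0.08), Agpat4 by 0.86 (SE 0.12) and Agpat5 by 0.62 (SE 0.13), with limma adjusted p of 0.00165, 0.00635 and 0.0305. Agpat3 read 5.99, 6.11 and 5.98 in the arrays labelled Gata6 KO and 5.28, 5.19 and 5.19 in controls, without overlap. Lpin3 lost the call without control replicate 1 or 2 or any array labelled Gata6 KO (0.0586 to 0.103), and Agpat5 without control replicate 1 or any array labelled Gata6 KO (0.0553 to 0.122).

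The COPII coat carries all secretory cargo and not chylomicrons alone. Among 18 coat and export genes 3 fell and 1 rose, beside 3.25% and 4.99% of all genes, and 14 stayed above the threshold. The median was -0.09, and 6 were lower without overlap, beside 12.6% of all genes, and 2 higher. In either direction 29.3% of all genes were without overlap. Tfg, which organises the sites where the coat forms, fell by 0.68 (SE 0.09), Sec16b, a scaffold of those sites, by 0.53 (SE 0.07) and the inner coat subunit Sec23a by 0.35 (SE 0.07), with limma adjusted p of 0.00610, 0.00685 and 0.0308. Mia3, a receptor for bulky cargo, rose by 0.59 (SE 0.11, limma adjusted p = 0.0224). The call of Sec23a was lost without any 1 of the 6 arrays (0.0564 to 0.119), and that of Mia3 without control replicate 1 or 3 or Gata6 KO replicate 2 or 3 (0.0694 to 0.0991). With the smooth muscle covariate Mia3 was at 0.30 (adjusted p = 0.441).

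A single gene of 10 others for plasma lipoproteins rose and none fell, beside 4.99% and 3.25% of all genes. The median was -0.04 on the log2 scale, but 5 of the 10 lay below the median of every array. Apoe, a ligand for particle uptake that macrophages also make, read 9.71, 9.64 and 9.35 in the arrays labelled Gata6 KO and 9.05, 9.16 and 9.10 in controls (log2 fold change 0.47, SE 0.11, limma adjusted p = 0.0424). That call was lost without any 1 control or without Gata6 KO replicate 1 or 2 (0.0711 to 0.154). None of 8 macrophage markers passed, and their summed linear signal was 498 to 803 in the arrays labelled Gata6 KO and 440 to 691 in controls, so the groups overlapped.

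Among 13 transcription factors known from liver or gut to act on these genes, 2 were lower and none higher, around a median of -0.10. Of all genes, 3.25% were lower and 4.99% higher by the same rule. Leaving out 1 array, the count of lower factors ran from 0 to 4, being 4 without control replicate 1. Nr1h3, a sterol-sensing nuclear receptor, fell by 0.89 (SE 0.15, limma adjusted p = 0.0146), a call lost without control replicate 3 (0.0643). Hnf4g fell by 0.54 (SE 0.12, limma adjusted p = 0.0369), lost without any 1 of the 6 arrays (0.0522 to 0.126), whereas its relative Hnf4a read 8.75, 8.83 and 8.87 in the arrays labelled Gata6 KO and 8.76, 9.04 and 8.97 in controls (log2 fold change -0.10, adjusted p = 0.558). Creb3l3, which in mice activates Apoa4 and other apolipoprotein genes, read 4.30, 4.12 and 4.25 in the arrays labelled Gata6 KO and 4.76, 6.12 and 5.46 in controls, without overlap, and did not pass (log2 fold change -1.22, SE 0.30, limma adjusted p = 0.0531). Hnf4a and Creb3l3 were named after their values were seen.

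**Figure D4:**
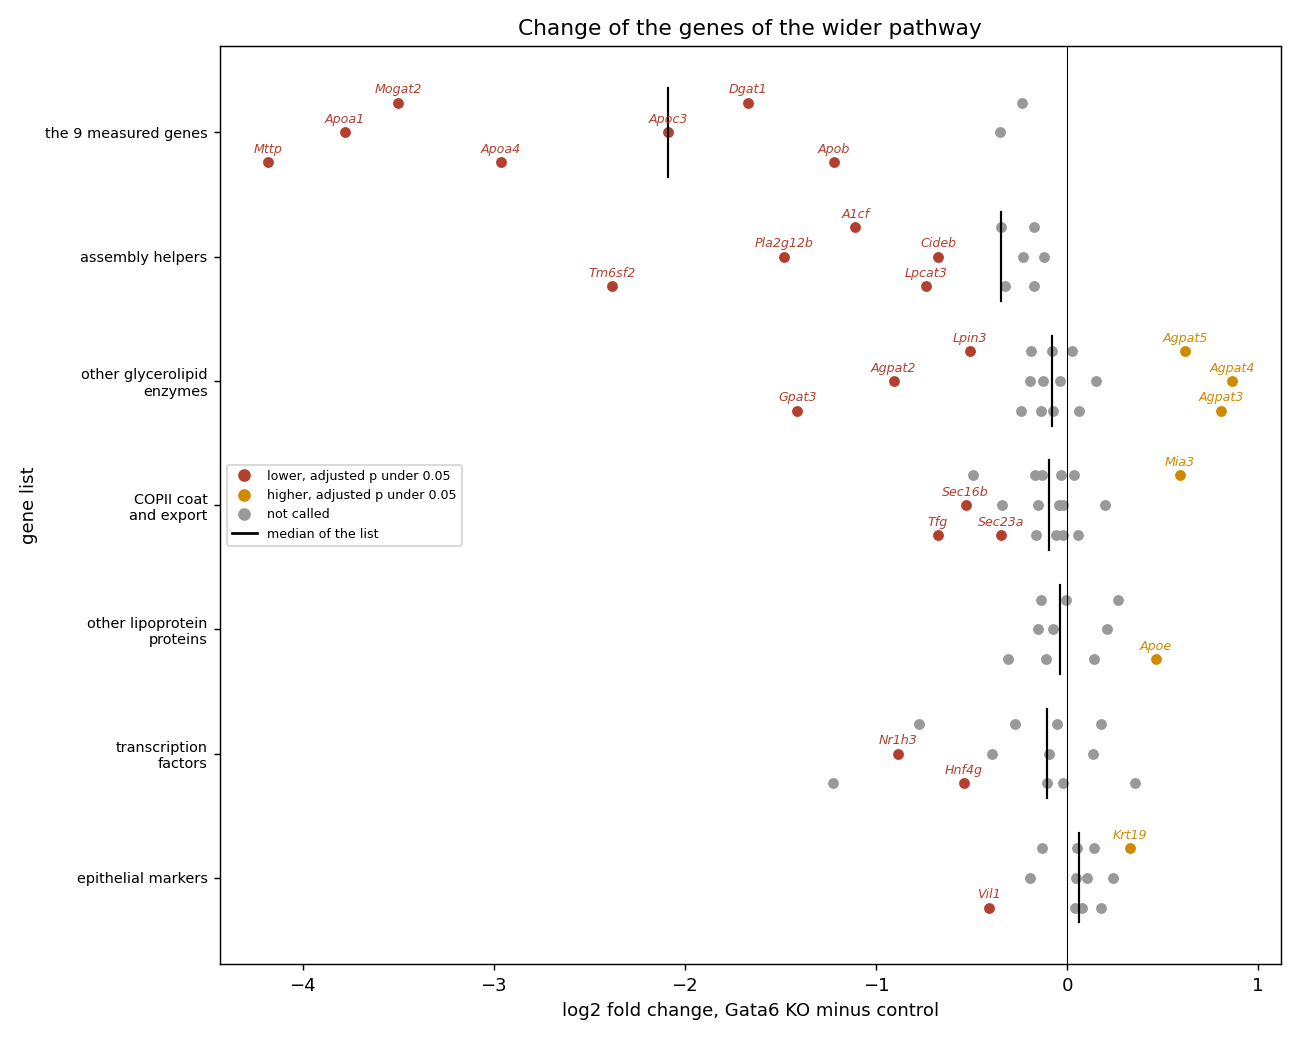
Log2 fold change, Gata6 KO minus control (horizontal axis), of each measured gene in 7 lists (vertical axis), with genes that passed named in red where lower and orange where higher, genes that did not pass in grey and a black line at each list's median. The medians are -2.09 for the 9 genes, -0.34 for assembly helpers, -0.08 for other glycerolipid enzymes, -0.09 for the COPII list and 0.06 for epithelial markers.

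Markers of the cells and regions that the tissue could hold were read beside these results. Over all genes 3.25% were called lower and 4.99% higher. Of 12 genes of epithelium as a whole, Vil1, the gene whose promoter drives the Cre, fell by 0.41 (SE 0.08) and Krt19 rose by 0.33 (SE 0.07), with limma adjusted p of 0.0225 and 0.0394. The call of Krt19 was lost without any 1 of the 6 arrays, and that of Vil1 without control replicate 3 or any array labelled Gata6 KO. The list's summed linear signal was 12631 to 14035 in the arrays labelled Gata6 KO and 12179 to 13425 in controls. With each array centred on the mean of this list, the same count of 7 chylomicron genes was lower. Smooth muscle markers summed to 3951 to 4966 in the arrays labelled Gata6 KO and 3386 to 3853 in controls, without overlap. The call of 1 of 10, Tagln, as higher was lost without control replicate 1 or 3 or Gata6 KO replicate 2 or 3. None of the 10 had a negative log2 fold change (0.19 to 0.54, median 0.35). Beside 29.3% of all genes without overlap in either direction, 12.6% being lower, 6 of these 10 muscle markers were higher without overlap. With their mean as a covariate 4 of the 9 genes were called lower, and no fold change of the 3 that lost the call was smaller than without it. Apoa4 was then at -3.12 (SE 0.82, adjusted p = 0.214), Apob at -1.49 (SE 0.31, adjusted p = 0.125) and Apoc3 at -2.63 (SE 0.49, adjusted p = 0.101), each with a larger SE. Apoa1 kept the call at -5.01 (adjusted p = 0.0143).

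Of 9 adipocyte markers, Pck1 was the 1 that rose, by 1.21 (SE 0.29, limma adjusted p = 0.0485), a call lost without control replicate 2 or 3 or any array labelled Gata6 KO. The shares over all genes were 4.99% higher and 3.25% lower. Their sums were 867 to 1055 in the arrays labelled Gata6 KO and 349 to 876 in controls. Only the sum of control replicate 1, the array that stood apart, reached those of the arrays labelled Gata6 KO. The median log2 fold change of the 9 markers was 0.70, and 1 of them was negative. Dgat2 and other glycerolipid genes are also expressed in fat. Hepatocytes also make apolipoproteins: of 10 hepatocyte markers none was called, their sums were 195 to 264 in the arrays labelled Gata6 KO and 130 to 205 in controls, and 7, among them Ahsg, Fga and Fgb, lay below the median of every array. Albumin, Alb, read 2.06, 4.32 and 2.95 in the arrays labelled Gata6 KO and 2.01, 2.07 and 1.77 in controls. Lymphoid markers had none called among 9, with sums of 143 to 184 in the arrays labelled Gata6 KO and 144 to 166 in controls.

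Markers of intestinal region differed beside the chylomicron genes. Their counts stand beside 3.25% of all genes called lower and 4.99% called higher. Of 6 ileal genes 4 fell, or 2 without control replicate 3 and likewise without replicate 1 or 2 of the arrays labelled Gata6 KO, and their summed signal was 1344 to 1903 in the arrays labelled Gata6 KO and 3327 to 3725 in controls. Of 7 colon genes 3 rose: Sult1c2, Mettl7b and Cyp2c55. The count was 4 without control replicate 1 and 2 without any 1 of the arrays labelled Gata6 KO. The 7 summed to 6189 to 6901 in the arrays labelled Gata6 KO and 323 to 2421 in controls. Car1, at 12.18 on average in the arrays labelled Gata6 KO, made up most of their sums and of that of control replicate 1. It was itself not called (limma adjusted p = 0.0722). Hoxb13 was not called either and had a negative log2 fold change, -0.28. The proximal list had 1 gene lower, Adh6a, and 1 higher, Slc40a1, of 8, the second call being lost without control replicate 1 or 2 or any array labelled Gata6 KO. Of the 8, 4, the lactase gene Lct and Fabp1 among them, lay below the median of every array. The part of muscle, fat and regional signal in the decrease of the chylomicron genes was not tested. The muscle, ileal and colon sums did not overlap between the groups, so these signals and the Gata6 KO label cannot be told apart here. The fits with the muscle covariate and without control replicate 1 do not separate them.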

How the data were processed

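Each mouse has a column of log2 values in the table that the authors deposited. Per the submitters' processing notes, Affymetrix Expression Console made them. No source used here gives its version or how it corrected, normalized and summarised the probes; base 2 was read from the size of the values. Of 35557 probe sets, 21789 had 1 symbol, 1621 had several and 12147 had no entry. The brightest of a gene's probe sets was used, which left 19938 genes, with no filter on dim genes and no rescaling.

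Testing used limma 3.58.1 (R 4.3.3; lmFit and eBayes, Gata6 KO minus control, two-sided, Benjamini-Hochberg over all genes, threshold 0.05, moderated SE). The fit was tested on simulated arrays. Differences between 2 genes were compared with exact permutation tests over arrays. Summed marker signals add 2 to the power of each log2 value. The members and lists were chosen with earlier results of these data known. Genes were named as follows: the members, Gata6, Sar1a, and per wider list up to 4 passing genes with the smallest p and any count of 5 or fewer; the other neighbours and marker genes were named by position or after their values were seen. Alternatives covered scaling, dim genes, probe sets, moderation, weights, the replicate block, a muscle covariate and leaving out arrays. Figures were drawn with matplotlib 3.10.9.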

Additional observations from a re-analysis of the deposited data

How the results depend on the processing

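In all 18 alternative settings each of the 9 genes kept its negative direction, and none of the wider pathway genes named among those that passed turned, though many lost the call. With the smooth muscle covariate 2 assembly helpers, 1 glycerolipid enzyme, no COPII gene and no transcription factor were lower and no gene of these lists was higher. Without moderation the helpers, glycerolipid enzymes and COPII genes had 2, 1 and 1 lower, and without control replicates 1 and 3 together none. The count of lower genes, 7 of 9, was 7 in 12 of the settings; it was 3 without moderation, 4 with the smooth muscle covariate, 4 to 7 over the 6 fits that each leave out 1 array, with 4 without Gata6 KO replicate 2, and 1, Apoa4, without control replicates 1 and 3 together, a setting chosen after seeing the data that leaves 1 control, assumed to vary like the other group. Mttp, Mogat2 and Dgat1 lost the call there alone (adjusted p = 0.0570, 0.0927 and 0.0812). Under the replicate block the count was 7, with 475 of all genes lower and 766 higher; deviations of same-numbered mice correlated at 0.04, -0.04 and 0.15, so the numbers were not taken as pairing.

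Counts over all genes, 648 lower and 995 higher, moved more. They were 406 and 491 with every probe set on its own, 106 and 168 without moderation, 56 and 50 with the smooth muscle covariate, and 11 and 25 without control replicates 1 and 3 together. Median centring gave 565 and 1562. Leaving out 1 array gave 277 to 597 lower and 320 to 806 higher. The cause was not tested, except that fits without an array hold fewer samples. Leaving out 1 array, the differences between pairs of genes ran from -1.39 to -1.21 for Dgat1 minus Dgat2, -3.30 to -2.85 for Mogat2 minus Dgat2, -0.49 to -0.38 for Sar1b minus Sar1a, -3.09 to -2.82 for Mttp minus Apob and -1.91 to -1.42 for Apoa1 minus Apoc3. The file gives no background level, which limits the size of decreases to dim values.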
